A study of Mus musculus with 8 samples.

Results

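The sheet of connective tissue that covers the brain is built by meningeal fibroblasts, and 10 genes of these cells were followed here in the mouse hippocampus. They encode 5 small leucine-rich proteoglycans of the extracellular matrix (Lum, Dcn, Ogn, Bgn and Fmod), the matricellular protein periostin (Postn) and 4 membrane transporters (Slc6a13, Slc22a6, Slc22a8 and Slc13a4). They are 10 of the 37310 genes in the deposited table and 10 of the 17913 genes that passed the filter on low counts, so every one of them was tested. The genes were chosen by name with earlier results of these libraries known, among them their difference between genotypes. That difference is therefore given as a description, and nothing is read from how many of the 10 differ.

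Hippocampi came from 4 Nr2f1 heterozygotes, with 1 copy of the gene knocked out, and from 4 wild-type (WT) mice, 1 library each. Nr2f1 encodes an orphan nuclear receptor with a part in the regional patterning of cortex and hippocampus. All mice were B6.129 F1 hybrids aged 3 months and labelled male, with no treatment; the labels do not describe the mutant allele further. Xist, the RNA that coats an inactive X chromosome, ran from 463 to 601 CPM over the 8 libraries, while all 14 Y-linked genes of the table together had 3 counts, so the libraries of both genotypes go against the male label. CPM are read counts scaled to library size by the TMM method. Libraries held 58717305 to 90043971 gene counts. Nr2f1 itself stood at 32.4, 31.0, 33.5 and 28.5 CPM in the heterozygotes, against 53.4, 49.5, 54.1 and 51.6 CPM in WT mice. The groups did not overlap, and heterozygotes held 60.1% of the WT level (log2 fold change -0.73, SE 0.0511, edgeR adjusted p = 7.32e-05; exact two-sided permutation test p = 0.0286, the smallest that 4 against 4 allows). Libraries 1 and 3 of either genotype had a ratio of the spike-in RNAs ERCC-00130 and ERCC-00002 of 1.2 to 1.28, and libraries 2 and 4 one of 0.165 to 0.186, so odd and even numbers went with different spike-in mixes. In WT libraries 1 and 3 the markers of the choroid plexus, the epithelium that secretes cerebrospinal fluid, were far lower than in the other 6, with a summed level of 84.9 and 451 CPM.

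Small leucine-rich proteoglycans are short core proteins with repeats rich in leucine that carry chondroitin, dermatan or keratan sulfate chains, bind collagen fibrils and set their width and spacing. Periostin is secreted into the same matrix, where it binds integrins, collagen and fibronectin. The transporters belong to the barrier side of the meninges: they move GABA and taurine, organic anions such as drugs and spent metabolites, and sulfate between brain fluid and blood. Meningeal fibroblasts and their kin lie on the surface of the brain, in its fissures, around larger vessels and in the stroma of the choroid plexus, not among the neurons. In bulk RNA a change in the number of such cells and a change in the RNA of each cell cannot be told apart.

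The proteoglycan family is divided into classes by the spacing of 4 cysteines ahead of the repeats, and the coding sequence of this cluster is shown for 3 members, since these 3 belong to different classes and yet varied together among the libraries. Capitals mark the cysteine codons, and the sequences are from the mouse transcripts of GENCODE M21.
Bgn: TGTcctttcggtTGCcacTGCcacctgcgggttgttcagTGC
Fmod: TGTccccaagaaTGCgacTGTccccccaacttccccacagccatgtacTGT
Ogn: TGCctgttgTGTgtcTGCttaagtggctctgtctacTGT
In Bgn, residues 64 to 77 of a protein of 369, the cysteines are separated by 3, 1 and 6 other residues. In Fmod, residues 76 to 92 of 376, the spacing is 3, 1 and 9, and in Ogn, residues 94 to 106 of 298, it is 2, 1 and 6. These are the patterns of the first, the second and the third class of the family; Dcn belongs to the class of Bgn, and Lum to that of Fmod.

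Promoter windows of 250 bases ahead of a start site were taken from RefSeq (GRCm38.p6), which held 11 start sites for 8 of the 10 genes; Lum and Dcn are named only. Windows are shown for Postn, the one gene of the 10 that passed the test across all genes, for the neighbouring pair Slc22a6 and Slc22a8, and for Slc13a4, which had the largest difference. Capitals mark TATAAA, a form of the TATA box, read on the gene's own strand. They also mark the CCAAT box, searched on both strands and therefore reading ATTGG where it lies on the other strand. The motif AGGTCA, which nuclear receptors of the Nr2f family bind as a repeat, was also searched on both strands and was not among the letters of these 4 windows.
Postn, second start, chr3:54360857-54361106, plus strand: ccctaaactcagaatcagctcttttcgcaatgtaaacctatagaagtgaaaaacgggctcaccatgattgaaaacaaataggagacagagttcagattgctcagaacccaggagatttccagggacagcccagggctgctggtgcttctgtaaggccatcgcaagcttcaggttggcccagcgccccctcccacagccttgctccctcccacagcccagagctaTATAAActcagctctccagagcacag
Slc22a6, chr19:8617746-8617995, plus strand: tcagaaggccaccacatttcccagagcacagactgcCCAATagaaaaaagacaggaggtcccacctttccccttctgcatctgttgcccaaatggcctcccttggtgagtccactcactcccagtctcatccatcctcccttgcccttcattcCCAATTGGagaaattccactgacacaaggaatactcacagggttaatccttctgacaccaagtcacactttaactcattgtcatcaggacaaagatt
Slc22a8, chr19:8592932-8593181, plus strand: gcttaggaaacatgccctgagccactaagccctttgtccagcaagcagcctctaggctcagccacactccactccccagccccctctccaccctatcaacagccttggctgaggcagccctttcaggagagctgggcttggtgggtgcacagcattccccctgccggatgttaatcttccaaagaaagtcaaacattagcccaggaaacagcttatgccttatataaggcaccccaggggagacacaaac
Slc13a4, chr6:35308127-35308376, minus strand: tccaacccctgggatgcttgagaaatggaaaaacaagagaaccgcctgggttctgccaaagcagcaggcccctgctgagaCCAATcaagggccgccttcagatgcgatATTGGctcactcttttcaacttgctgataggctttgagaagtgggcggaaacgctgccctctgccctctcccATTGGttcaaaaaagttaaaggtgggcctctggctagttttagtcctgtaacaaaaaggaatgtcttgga
The Postn window has TATAAA beginning 26 bases before its start. The Slc22a6 window has CCAAT at 214 bases before its start and an overlapping pair, one on each strand, at 97 and 94 bases. The bases just after this RefSeq start were not found in a GENCODE M21 transcript of Slc22a6, so its position is less certain. For the other printed windows such bases were found. The Slc13a4 window has 3 matches to CCAAT, at 170, 142 and 70 bases. The Slc22a8 window has no exact match to any of the 3 motifs, and other forms of the TATA box were not searched. Over all 32851 promoter windows of the table, 33.8% held CCAAT, 7.59% held TATAAA and 14.0% held AGGTCA. Of the 11 windows of these genes, 3 held CCAAT, 2 held TATAAA and 2 held AGGTCA, the last being the other Postn start and one of 3 Slc6a13 starts. A match is a description of the letters only.

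Levels between genes were compared per kilobase of exon. Dcn was the most abundant transcript, at 8.70 ± 1.22 CPM per kb in heterozygotes and 5.68 ± 1.71 CPM per kb in WT mice (SD, n = 4 each). Postn was the least abundant, at 0.739 ± 0.0645 CPM per kb in heterozygotes and 0.329 ± 0.0704 CPM per kb in WT mice. In WT mice the order between them ran Ogn, Slc22a8, Slc13a4, Fmod, Bgn, Lum, Slc6a13 and Slc22a6, and the ranges of every neighbouring pair in that order overlapped. In heterozygotes Slc13a4 stood next to Dcn, at 7.49 ± 1.30 CPM per kb, and its lowest library lay above the highest of Ogn, which followed it. Another break lay below Lum, at 2.31 ± 0.201 CPM per kb, whose lowest heterozygote library lay above every one of Slc22a6. Per kilobase of coding sequence Dcn and Postn were still at the ends of the order in WT mice, at 31.2 and 1.14 CPM per kb of coding sequence.

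**Figure D1:**
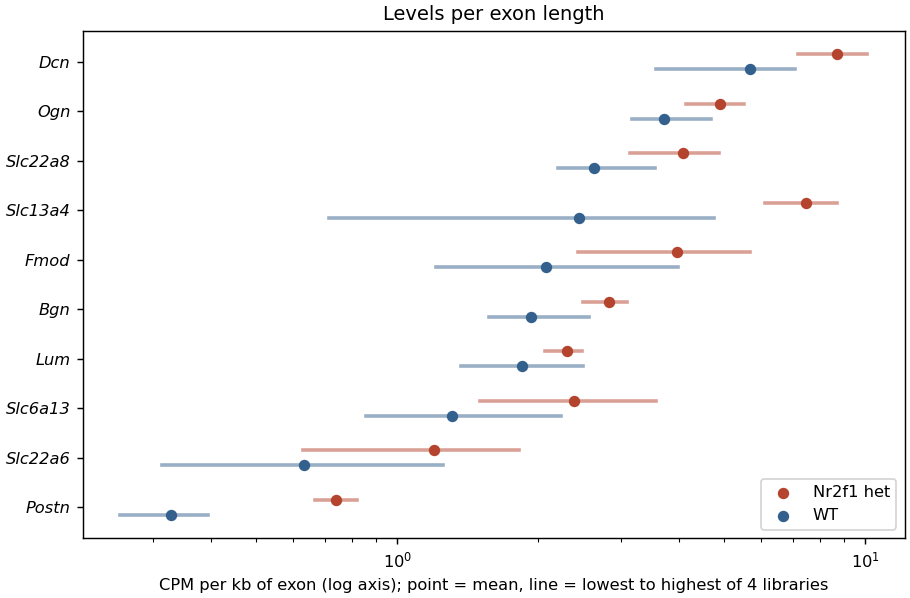
Mean level of each gene in CPM per kb of exon on a log axis, with Nr2f1 heterozygotes above WT mice in each row and a line from the lowest to the highest of 4 libraries. Dcn is the highest and Postn the lowest in both genotypes, and Slc13a4 has the widest WT line.

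Among the proteoglycans, Dcn and Bgn carry chondroitin or dermatan sulfate chains and bind collagen and TGF-beta. Dcn, decorin (ENSMUSG00000019929.8, chromosome 10), had 53.2, 58.9, 49.1 and 42.0 CPM in heterozygote libraries 1 to 4, against 29.2, 20.9, 41.3 and 41.3 CPM in WT libraries 1 to 4. All heterozygotes lay above all WT mice, but the gap between heterozygote 4 and the 2 highest WT libraries was only 0.726 CPM. The log2 fold change was 0.61 (SE 0.239). Bgn, biglycan (ENSMUSG00000031375.10, chromosome X), had 15.2, 18.9, 17.8 and 17.1 CPM in heterozygotes, against 9.57, 11.3, 10.6 and 15.7 CPM in WT mice. WT library 4 reached just above heterozygote 1, while the other 3 WT libraries stayed below every heterozygote. The log2 fold change of Bgn was 0.55 with a standard error of 0.142.

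Lum and Fmod carry keratan sulfate and share binding sites on collagen. Lum, lumican (ENSMUSG00000036446.4, chromosome 10), had 5.42, 6.07, 5.06 and 6.03 CPM in heterozygotes, against 3.36, 4.26, 6.13 and 4.33 CPM in WT mice. WT library 3 was the highest of the 8, so the groups overlapped, and the log2 fold change of 0.32 (SE 0.151) was the smallest of the 10 genes. Fmod, fibromodulin (ENSMUSG00000041559.7, chromosome 1), had 8.04, 17.3, 18.8 and 8.40 CPM in heterozygotes, against 3.99, 5.37, 5.01 and 13.2 CPM in WT mice. Heterozygotes 2 and 3 and WT library 4 were high, and heterozygotes 1 and 4 lay below that WT library. The spread within a genotype was accordingly wide, with a coefficient of variation of 43.4% in heterozygotes and 61.5% in WT mice, and the log2 fold change of 0.93 had a standard error of 0.494.

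Ogn, osteoglycin or mimecan (ENSMUSG00000021390.5, chromosome 13), is a small member of the family first known from bone. It had 10.6, 14.1, 14.1 and 11.4 CPM in heterozygotes, against 8.16, 9.30, 8.66 and 12 CPM in WT mice. Heterozygotes 2 and 3 stood above all WT libraries, whereas WT library 4 stood above heterozygotes 1 and 4. The log2 fold change was 0.40 (SE 0.135). Ogn lies within Cenpp, a centromere protein gene on the opposite strand, and without strand marking by the library kit their reads cannot be told apart where they overlap. The reads assigned to Cenpp averaged 2.20 ± 0.0795 CPM in heterozygotes and 2.16 ± 0.320 CPM in WT mice (SD, n = 4 each), below those of Ogn in every library.

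Postn (ENSMUSG00000027750.9, chromosome 3) differed between genotypes by more than it varied within them. It stood at 6.46, 6.31, 7.16 and 5.80 CPM in heterozygotes, against 2.44, 3.33, 2.23 and 3.44 CPM in WT mice. The groups were 2.36 CPM apart at their nearest libraries, and the coefficient of variation was 8.73% in heterozygotes and 21.4% in WT mice. The log2 fold change was 1.16 (SE 0.132), or 2.23-fold (edgeR adjusted p = 0.00229). With each library left out in turn it ran from 1.06 to 1.27, and the edgeR adjusted p stayed at or below 0.0121.

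All 4 transporters were more uneven within a genotype than Postn, with coefficients of variation of 17.4% to 49.2% in heterozygotes and 24.0% to 74.4% in WT mice. Slc6a13, the carrier GAT2 that takes up GABA and taurine with sodium (ENSMUSG00000030108.8, chromosome 6), had 5.08, 7.91, 10.4 and 4.35 CPM in heterozygotes, against 2.49, 2.94, 3.28 and 6.51 CPM in WT mice. Heterozygotes 2 and 3 were the highest, and WT library 4 lay above heterozygotes 1 and 4. The log2 fold change was 0.87 (SE 0.406).

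Slc22a6 and Slc22a8 encode the organic anion transporters OAT1 and OAT3, which exchange dicarboxylates for drugs, toxins and metabolites, and they lie 6204 bases apart on chromosome 19 on the same strand. Slc22a6 (ENSMUSG00000024650.4) had 3.06, 6.36, 7.23 and 2.50 CPM in heterozygotes, against 1.25, 2.32, 1.55 and 4.96 CPM in WT mice. Slc22a8 (ENSMUSG00000063796.2) had 13.4, 19.0, 18.9 and 12.3 CPM in heterozygotes, against 8.62, 9.65, 8.92 and 13.9 CPM in WT mice. The libraries took the same places in both genes: heterozygotes 2 and 3 high, WT library 4 above heterozygotes 1 and 4, and the other WT libraries low. The log2 fold changes were 0.92 with a standard error of 0.541 for Slc22a6 and 0.63 with a standard error of 0.211 for Slc22a8. The smallest count behind these values was 94 reads of Slc22a6 in WT library 1, whose exact 95% Poisson interval was 1.01 to 1.53 CPM. Such an interval covers the counting error of reads alone. The reads carry no molecular identifiers, so copies of a molecule cannot be told from separate molecules.

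Slc13a4 encodes a sodium-dependent sulfate transporter known from the meninges, the choroid plexus and the placenta (ENSMUSG00000029843.4, chromosome 6). It had 27.6, 39.3, 38.5 and 30.1 CPM in heterozygotes, against 3.24, 13.7, 5.88 and 21.5 CPM in WT mice. All heterozygotes lay above all WT mice, and the lowest values were those of WT libraries 1 and 3, the libraries low in choroid plexus markers. The log2 fold change was 1.59, the largest of the 10 genes, with a standard error of 0.519. Without WT libraries 1 and 3 it was 0.94, within the odd-numbered libraries 2.87 and within the even-numbered libraries 0.98.

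**Figure D2:**
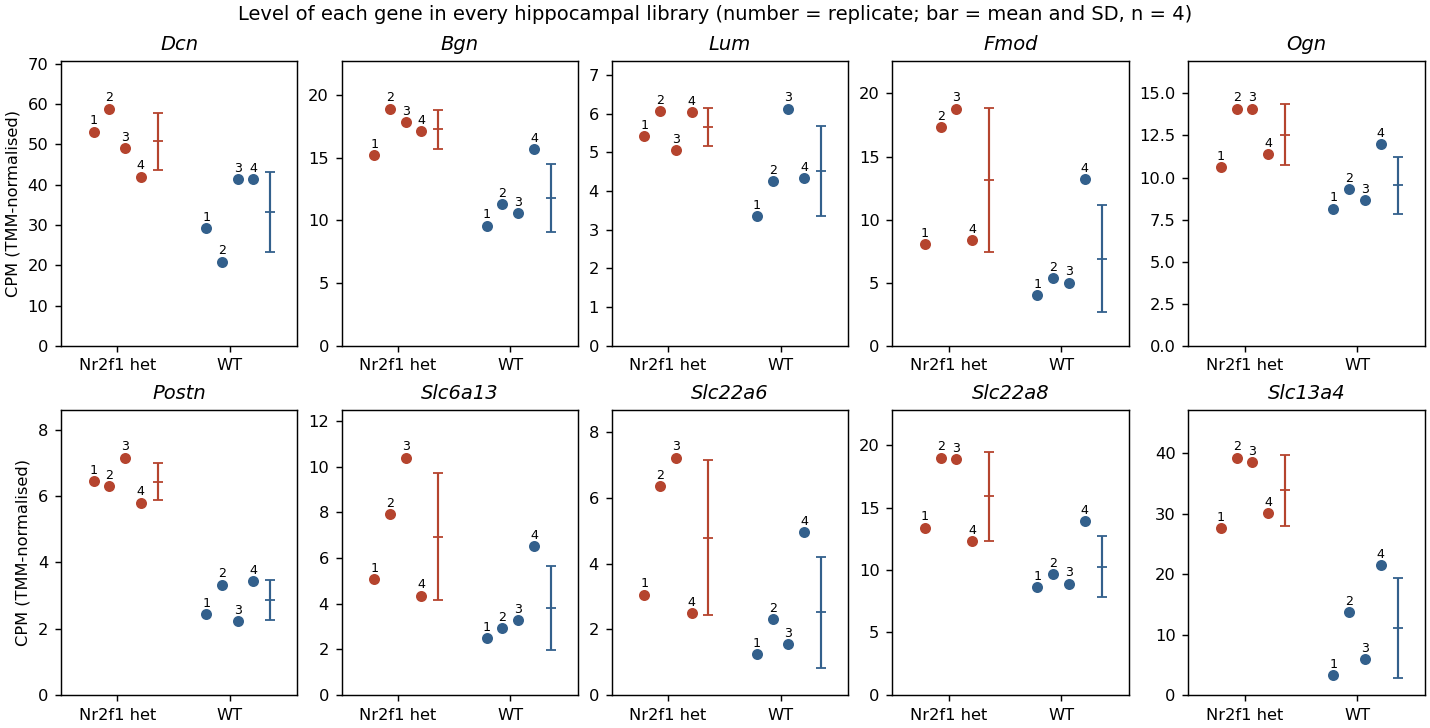
CPM of the 10 genes in each library, Nr2f1 heterozygotes left and WT mice right, with the replicate number above each point and the mean and SD of 4 libraries as a bar. In Ogn, Fmod, Slc6a13, Slc22a6 and Slc22a8 heterozygotes 2 and 3 and WT library 4 stand high, while in Postn the genotypes are apart.

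All 10 genes had a positive log2 fold change, with a median of 0.75, against -0.01 over the 17913 genes tested; the median was 0.55 for the 5 proteoglycans and 0.90 for the 4 transporters. Only Postn passed an edgeR adjusted p of 0.05, so 1 of 10 was called higher and none lower (6 of the 10 had an unadjusted p under 0.05), where 2.62% of all genes were called higher and 0.368% lower. The adjusted p of the other 9 ran from 0.0803 for Bgn to 0.453 for Slc22a6 (edgeR). The heterozygotes lay wholly above the WT mice in 3 of the 10 genes, Dcn, Postn and Slc13a4, where 6.99% of all genes did so. Because these genes were selected on this contrast, the shares are given side by side and nothing follows from them. Without WT library 4, Ogn (edgeR adjusted p = 0.016), Bgn (0.000982) and Slc22a8 (0.0437) also passed, with log2 fold changes of 0.54, 0.73 and 0.83. Postn was called within each spike-in mix, at 1.56 in the odd-numbered libraries (edgeR adjusted p = 0.00107) and 0.84 in the even-numbered ones (edgeR adjusted p = 0.041), and without WT libraries 1 and 3, at 0.92 (edgeR adjusted p = 0.00617). These fits reuse the libraries on which the genes were selected and are not separate support. The odd-numbered WT libraries are WT libraries 1 and 3, those low in choroid plexus markers. With a choroid plexus score as a covariate none of the 10 was called, and only 1 of the 17913 genes tested was, against 535 without it. Postn then had a log2 fold change of 0.82 (edgeR adjusted p = 0.31) and Slc22a6 one of -0.16. The score did not overlap between the genotypes, so this covariate and genotype can hardly be told apart.

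**Figure D3:**
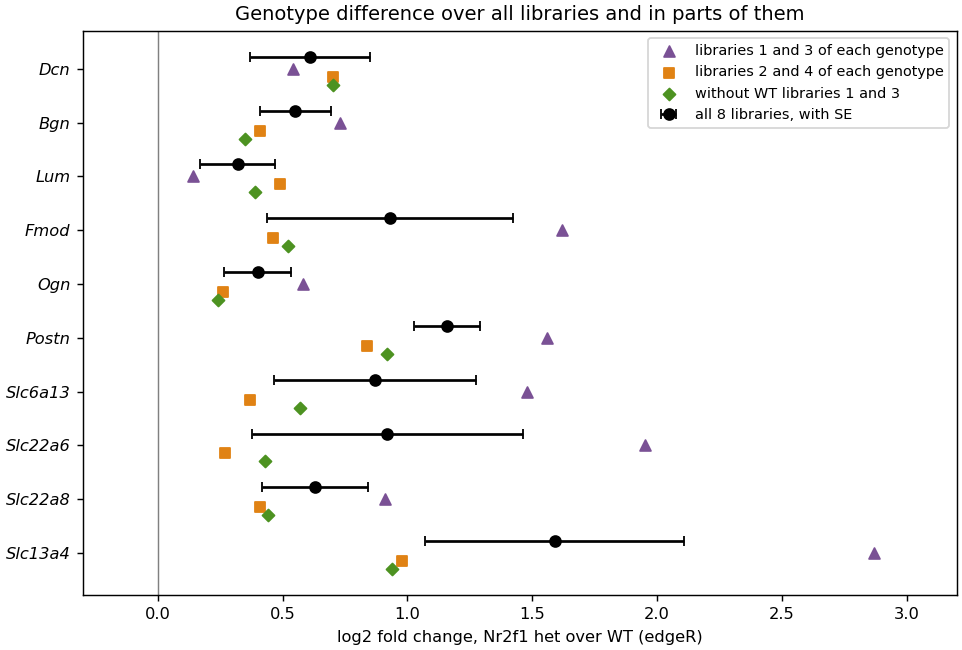
Log2 fold change of each gene, Nr2f1 heterozygotes over WT mice, over all 8 libraries with its standard error (circle), in the libraries numbered 1 and 3 (triangle), in those numbered 2 and 4 (square) and without WT libraries 1 and 3 (diamond). All values lie above 0; Slc13a4 spans 0.94 to 2.87 and Postn 0.84 to 1.56.

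The way the genes varied among mice of one genotype does not rest on the difference between genotypes. Pearson's r was computed over the 8 libraries after each genotype's mean log2 CPM had been taken off, and is a description over libraries that share depth and dissection. Over all 45 pairs the median r was 0.68 (median Spearman's rho 0.67). A group of 6 genes, Ogn, Bgn, Fmod, Slc6a13, Slc22a6 and Slc22a8, picked after these values were seen, had a median r of 0.96 over its 15 pairs, from 0.82 to 0.99 (median rho 0.90), and 0.95 without WT libraries 1 and 3. The highest values joined proteoglycans to transporters as well as to each other, such as 0.99 for Ogn with Fmod and 0.98 for Fmod with Slc22a6 and with Slc22a8. The neighbours Slc22a6 and Slc22a8, whose promoter windows are printed above, reached 0.98. Bgn, Fmod and Ogn, of 3 different cysteine classes, reached 0.90 to 0.99 with each other.

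Over all 8 libraries the remaining 4 genes fell outside that pattern to different degrees. Slc13a4 had an r of 0.68 to 0.88 with the 6 genes, and its highest was 0.88 with Bgn. Among the heterozygotes alone its r with them ran from 0.88 with Slc6a13 to 1.0 with Ogn. Without WT libraries 1 and 3 the lowest r of any pair of transporters, Slc13a4 included, was 0.92. Postn had a median r of 0.66 with the other 9 genes. Dcn had a median of 0.37, which became 0.72 without WT libraries 1 and 3. Lum stood apart, with a median of 0.02 and a range of -0.36 to 0.42, although it lies next to Dcn on chromosome 10, 46985 bases away on the same strand; Lum and Dcn had an r of 0.42. In the 5 proteoglycans the median over 10 pairs was 0.40, against 0.89 over the 6 pairs of transporters and 0.81 over the 20 pairs of a proteoglycan with a transporter. Without WT libraries 1 and 3 these medians were 0.69, 0.95 and 0.80.

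**Figure D4:**
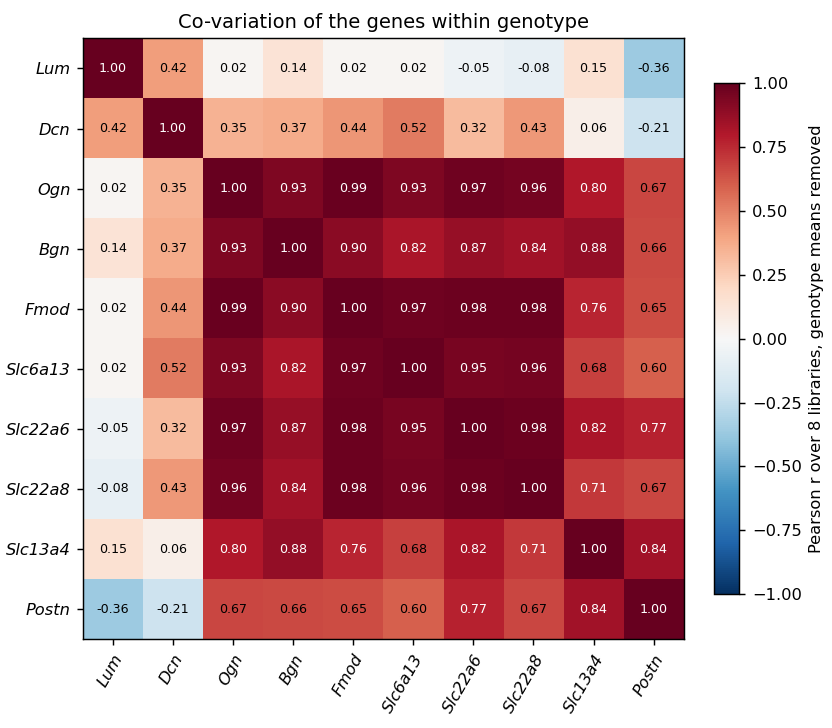
Pearson's r between each pair of genes over 8 libraries with the genotype means removed; red is positive and blue negative. The block from Ogn to Slc22a8 holds values of 0.82 to 0.99, and the rows of Lum and Dcn are pale.

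Likeness was ranked over the 14232 genes with a mean of at least 1 CPM. The genes followed here, and genes with clone, predicted or mitochondrial names, were passed over in the ranking. Of the rest, those whose libraries were most like the mean of the proteoglycans were Vcam1, an adhesion molecule of vessels and fibroblasts (r = 0.98, rho 1.00), Cped1 (0.97, rho 0.93) and Fam149a (0.97, rho 0.98). Those most like the mean of the transporters were Gjb2, a gap junction protein of the leptomeninges (0.99, rho 1.00), Ifitm2, an interferon-inducible membrane protein (0.99, rho 0.98), and Fbln5, an elastic fibre protein (0.99, rho 0.98). Without WT libraries 1 and 3 these 6 values were 0.98 or 0.99. Of the 6 genes Vcam1 passed the genotype test, at 34.0 ± 1.38 CPM in heterozygotes and 26.7 ± 2.09 CPM in WT mice (SD, n = 4 each; log2 fold change 0.35, edgeR adjusted p = 0.00819), a call lost without WT libraries 1 and 3 (edgeR adjusted p = 0.0777). Fbln5 had a log2 fold change of 0.95 (edgeR adjusted p = 0.0543). Gjb2 and Fbln5 are also in lists read below, Gjb2 in that of meningeal fibroblast markers and Fbln5 in that of the matrix.

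Of the rest of the small leucine-rich family and its nearest relatives, 12 of 13 genes were tested, 1 rose, none fell and 11 passed in neither direction. Calls in this list and those below stand beside 2.62% of all genes called higher and 0.368% called lower. Kera, the corneal member beside Lum, had at most 8 reads in a library. The gene that rose was Prelp, a family member that anchors basement membranes, at 45.5, 45.5, 44.5 and 50.8 CPM in heterozygotes, against 26.8, 33.0, 31.6 and 36.1 CPM in WT mice. The groups did not overlap (log2 fold change 0.54, SE 0.0808, edgeR adjusted p = 0.00899), and the call held with each library left out. DESeq2 called Tsku and Ecm2 as well, and limma-voom Tsku. Without WT libraries 1 and 3 the list still had 1 call, Prelp (edgeR adjusted p = 0.014), and its median over all libraries was 0.30. Omd, osteomodulin, which lies beside Ogn, had 0.506 to 1.38 CPM in heterozygotes and 0.307 to 1.10 CPM in WT mice, with the same libraries high as in Ogn, and did not pass (log2 fold change 0.80, edgeR adjusted p = 0.451). Tsku had a log2 fold change of 0.92 (edgeR adjusted p = 0.0581) and Ecm2 one of 0.40 (edgeR adjusted p = 0.0721).

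Of the other genes of the 3 transporter families, 19 of 22 were tested, 1 rose and none fell, with a median log2 fold change of 0.13; without WT libraries 1 and 3 none was called (edgeR; 3 were called by DESeq2 and 1 by limma-voom over all libraries). Slc6a20b, an imino acid carrier with a near-identical copy in Slc6a20a that leaves its reads uncertain, stood at 0.442, 0.288, 0.664 and 0.543 CPM in heterozygotes, against 0.160, 0.173, 0.100 and 0.211 CPM in WT mice (log2 fold change 1.59, edgeR adjusted p = 0.0299). All its levels lay under 1 CPM, and the call held in 2 of the 8 fits with a library left out, with an edgeR adjusted p of up to 0.0938 without WT library 3. Slc6a20a had 9.84 to 16.4 CPM in heterozygotes and 6.27 to 11.4 CPM in WT mice and did not pass (log2 fold change 0.66, edgeR adjusted p = 0.235). Slc6a12, the betaine and GABA carrier beside Slc6a13, had 0.678 to 2.13 CPM in heterozygotes and 0.207 to 0.912 CPM in WT mice (log2 fold change 1.34, edgeR adjusted p = 0.201). Slc6a11, a GABA carrier of astrocytes, had a log2 fold change of 0.13 and did not pass.

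In the matrix that these proteins sit in, 5 of 24 genes rose, none fell and 19 passed in neither direction, with a median log2 fold change of 0.40. DESeq2 called 11 of the 24 higher and limma-voom 6. Without WT libraries 1 and 3 the count was 1, Pcolce (edgeR adjusted p = 0.0371). Tgfbi, a relative of periostin, averaged 4.64 ± 0.627 CPM in heterozygotes and 2.63 ± 0.555 CPM in WT mice (SD, n = 4 each; log2 fold change 0.81, edgeR adjusted p = 0.0135), a call that held in 7 of 8 fits with a library left out and missed without WT library 3 (edgeR adjusted p = 0.0535). Fbln1, an elastic fibre and basement membrane protein, had a log2 fold change of 0.76 (edgeR adjusted p = 0.0267). Col6a3, a chain of the beaded collagen VI that decorin and biglycan bind, had one of 1.18 (edgeR adjusted p = 0.0282). Thbs1, thrombospondin, had one of 0.90 (edgeR adjusted p = 0.0481). These last 3 were less steady: Fbln1 and Col6a3 were called in 2 and Thbs1 in 1 of the 8 fits with a library left out, with edgeR adjusted p of up to 0.0915 (without WT library 3), 0.0886 (without WT library 1) and 0.13 (without WT library 3). Of the fibrillar collagens, Col1a2 at 0.80 and Col3a1 at 0.92 did not pass in edgeR (adjusted p = 0.114 and 0.0765) but were called by DESeq2. Col1a1 at 0.44 did not pass (edgeR adjusted p = 0.398). Neither did Col5a1 at -0.16 and Col5a2 at 0.10 (edgeR adjusted p = 0.358 and 0.547).

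Of the growth factors and receptors that decorin, biglycan or periostin bind, 3 of 18 rose and none fell, with a median log2 fold change of 0.05. Without WT libraries 1 and 3 the count was 1, Tgfbr3 (edgeR adjusted p = 0.00735). Tgfbr3, betaglycan, a co-receptor for TGF-beta, had 32.0, 30.4, 32.3 and 32.8 CPM in heterozygotes, against 19.9, 24.5, 21.2 and 23.9 CPM in WT mice. Its groups did not overlap (log2 fold change 0.51, SE 0.0624, edgeR adjusted p = 0.00303), and the call held with each library left out. Tgfbr2, the receptor that binds TGF-beta first, had a log2 fold change of 0.31 (edgeR adjusted p = 0.0235), and Tlr2, an innate immune receptor for soluble biglycan, one of 0.96 (edgeR adjusted p = 0.0286). These calls held in 4 and 3 of the 8 fits with a library left out, with edgeR adjusted p of up to 0.0837 (without WT library 3) and 0.0856 (without WT library 1). The ligands Tgfb1, Tgfb2 and Tgfb3 lay at 0.05, 0.06 and 0.11, and the integrin chains Itgav and Itgb1 at -0.00 and 0.15.

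The enzymes that build the sulfated chains, and the genes that activate and supply sulfate, gave no call: 0 of 28 genes passed in edgeR or limma-voom (6 had an unadjusted p under 0.05 in edgeR, and DESeq2 called Chst12 and Chsy3 lower), with a median of -0.03 and log2 fold changes from -0.31 to 0.42. Dse, which turns chondroitin into dermatan sulfate, had 6.96 to 8.43 CPM in heterozygotes and 6.82 to 7.75 CPM in WT mice. Papss2, which makes the activated sulfate, had 16.0 to 18.7 CPM in heterozygotes and 16.8 to 18.8 CPM in WT mice, and Slc26a2, the sulfate carrier of cartilage, had 11.7 to 13.9 CPM in heterozygotes and 9.98 to 13.2 CPM in WT mice. In each of these 3 genes the genotypes overlapped. In 4 other genes of the 28, all heterozygotes lay below all WT mice, where 3.59% of all genes did so: B4galt7 (log2 fold change -0.15), B3gat3 (-0.08) and Chpf2 (-0.10), which help to build the linker or the chain, and the sulfotransferase Chst12 (-0.17, edgeR adjusted p = 0.0827).

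On the chromosomes, 14 of the 16 protein-coding genes that flank the 10 and are not among them were tested. Prelp, beside Fmod, was the only one that passed, and the median of the 14 was 0.11. Omd beside Ogn, Slc6a12 beside Slc6a13 and Fam180a beside Slc13a4 (log2 fold change 0.89, edgeR adjusted p = 0.137), picked after their values were seen, had low levels and did not pass; among the heterozygotes they were highest in libraries 2 and 3. The log2 fold changes of other neighbours differed from gene to gene: Trpc4 beside Postn lay at -0.01, Nol8 beside Ogn and Chrm1 beside Slc22a6 at -0.05 each, Btg2 beside Fmod at -0.19, Usp18 beside Slc6a13 at 0.31 and Haus7 beside Bgn at 0.30. Haus7, with 4.23 to 4.91 CPM in heterozygotes and 3.06 to 4.08 CPM in WT mice, did not overlap between genotypes but missed the threshold (edgeR adjusted p = 0.15).

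The label of meningeal fibroblast genes was set against the other markers of those cells. All 20 of them were detected in every library, none was at 0, and their log2 fold changes were all positive, with a median of 0.73. Of these, 2 rose (DESeq2 called 8 and limma-voom 3): Islr, a secreted leucine-rich protein of mesenchyme, at 18.2 ± 2.18 CPM in heterozygotes and 12.2 ± 1.09 CPM in WT mice (SD, n = 4 each; log2 fold change 0.57, edgeR adjusted p = 0.00899), and Pcolce, an enhancer of collagen maturation that is also in the matrix list, at 9.80 ± 1.41 CPM in heterozygotes and 4.32 ± 1.68 CPM in WT mice (log2 fold change 1.16, edgeR adjusted p = 0.0498). Islr held with each library left out, but not without WT libraries 1 and 3 together (edgeR adjusted p = 0.0909); Pcolce, which passed without that pair, held in 2 of the 8 fits with a single library left out, with an edgeR adjusted p of up to 0.141 without WT library 3. The summed level of the 20 was 431 to 508 CPM in heterozygotes and 158 to 339 CPM in WT mice, and Igf2 gave the most of it in heterozygotes. Igf2 had 229 to 271 CPM in heterozygotes and 43.1 to 156 CPM in WT mice. Igfbp2 had 61.0 to 70.8 and 20.2 to 44.8 CPM, so the sums mainly reflect a few genes. Taken singly, 6 of the 20 lay higher in every heterozygote than in every WT mouse, where 6.99% of all genes did so. Within a genotype the list of 20 followed the transporters with an r of 0.99 and the proteoglycans with 0.91. It was not alone in this: the matrix list, which shares 4 genes with it, had 0.98 and 0.86. The list of growth factors and receptors had 0.73 and 0.59, which became 0.31 and 0.40 without WT libraries 1 and 3. The other genes of the transporter families had 0.89 and 0.86. As lists, the rest of the small leucine-rich family had -0.04 and 0.15, and the chain enzymes with sulfate supply 0.09 and -0.29. The 6 markers of the arachnoid barrier had a median log2 fold change of 1.39. None passed in edgeR or limma-voom over all libraries (4 had an unadjusted p under 0.05 in edgeR, and DESeq2 called Crabp2), and Krt18 passed in edgeR without WT libraries 1 and 3. The epithelial keratins Krt8 and Krt18, with log2 fold changes of 1.85 and 1.6, did not overlap between genotypes. Both were lowest in WT libraries 1 and 3, those low in choroid plexus markers. Cdh1, E-cadherin, had a log2 fold change of 1.91 and Crabp2, a retinoic acid binding protein, one of 1.19. Dpp4 had one of 0.03, and its groups overlapped. Some of these markers are shared with epithelia, so their levels cannot be given to the arachnoid alone. The 6 summed to 107 to 130.1 CPM in heterozygotes and 81.8 to 130.4 CPM in WT mice, most of it Cldn11, which oligodendrocytes also make and whose log2 fold change was 0.00.

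Markers of other cell types also stood higher in heterozygotes. The 14 choroid plexus markers all lay higher in every heterozygote than in every WT mouse, where 6.99% of all genes did so. Their summed level was 4151 to 4693 CPM in heterozygotes and 84.9 to 2139 CPM in WT mice, with a median log2 fold change of 1.93. No marker was at 0, and Ttr, which carries thyroid hormone, gave most of the sum. None of the 14 passed in edgeR or limma-voom over all libraries (13 had an unadjusted p under 0.05 in edgeR, and DESeq2 called 4), but 11 passed in edgeR without WT libraries 1 and 3. Of 7 ependymal markers 5 rose, and 4 without that pair, among them Rarres2 at 0.91 (edgeR adjusted p = 0.00363), Mia at 1.34 (0.00899), Dynlrb2 at 1.62 (0.021) and Rsph1 at 1.21 (0.0241), with sums of 33.8 to 50.2 CPM in heterozygotes and 12.7 to 23.2 CPM in WT mice. The calls of Dynlrb2 and Rsph1 held in 4 and 3 of the 8 fits with a library left out, with edgeR adjusted p of up to 0.0602 (without heterozygote 4) and 0.0582 (without heterozygote 2). The part of these cells in the levels of the 10 genes was not tested. Among the heterozygotes the choroid plexus score ranged over 0.24 on the log2 scale, the transporter score over 0.94 and the proteoglycan score over 0.43, the last 2 highest in heterozygotes 2 and 3. Among WT mice the choroid plexus score ran from -3.63 to 0.36, the transporter score ranged over 1.69 and the proteoglycan score over 0.77. Within a genotype the choroid plexus list had an r of 0.77 with the transporters and 0.61 with the proteoglycans (0.61 and 0.83 without WT libraries 1 and 3). The ependymal list had 0.43 and 0.18, which turned to -0.82 and -0.61 without that pair, and the arachnoid list 0.91 and 0.67 (0.92 and 0.90). The neuronal list ran the other way, at -0.83 with both, and at -0.94 or below without that pair.

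**Figure D5:**
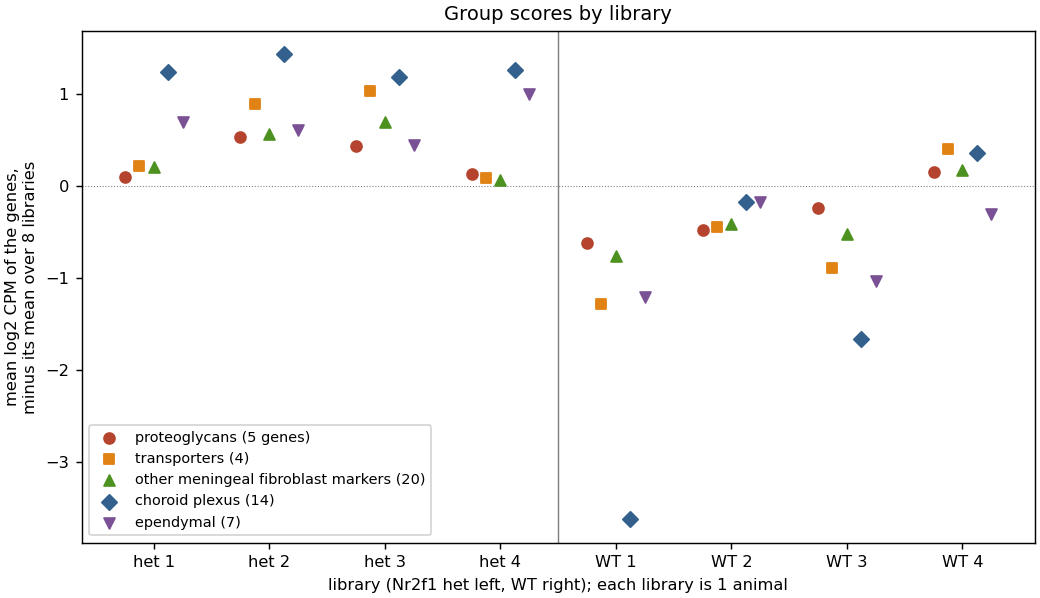
Scores of 5 gene groups in each library, as the mean log2 CPM of the genes minus its mean over 8 libraries, Nr2f1 heterozygotes left and WT mice right. In the heterozygotes the choroid plexus score stays between 1.19 and 1.43 while the transporter score moves between 0.09 and 1.03; in WT mice the choroid plexus score runs from -3.63 in library 1 to 0.36 in library 4.

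Markers of the hippocampus proper, of its vessels and of border macrophages were read in the same way. Of 9 mural markers, those of pericytes and smooth muscle, Acta2 rose (log2 fold change 0.54, edgeR adjusted p = 0.0241, called in 3 of 8 fits with a library left out, with an adjusted p of up to 0.0701 without WT library 1, and not called without WT libraries 1 and 3), and the list summed to 136 to 140 CPM in heterozygotes and 130 to 140.1 CPM in WT mice. Of 8 neuronal markers, Wfs1 of CA1 neurons fell (log2 fold change -0.24, edgeR adjusted p = 0.0362) and so did Rbfox3, the gene of the NeuN antigen (-0.13, edgeR adjusted p = 0.0396), each called in 1 of 8 fits with a library left out, with edgeR adjusted p of up to 0.102 (without heterozygote 3) and 0.125 (without WT library 1). None of 9 endothelial, 6 astrocyte, 6 oligodendrocyte and 6 microglial or border macrophage markers passed in edgeR. In these lists 1, 2, 0 and 1 had an unadjusted p under 0.05 in edgeR. DESeq2 called Slc1a2 lower and the border macrophage marker Mrc1 higher, and limma-voom called Slc1a2 lower. The microglial markers Cx3cr1 and P2ry12 had log2 fold changes of -0.00 and -0.10. The sums of these 4 lists were 283 to 325, 4467 to 4727, 3718 to 4453 and 178 to 192 CPM in heterozygotes, against 294 to 311, 4810 to 5070, 3082 to 4574 and 177 to 191 CPM in WT mice. Within a genotype the list of microglia and border macrophages had an r of 0.71 with the transporters and 0.60 with the proteoglycans. These values belong to neither cell type alone. The oligodendrocyte list had 0.68 and 0.35. The astrocyte list had 0.46 and 0.06, the mural list 0.34 and 0.42, and the endothelial list 0.12 and 0.17. Several of these values rested on WT libraries 1 and 3. Without that pair the endothelial list had 0.82 and 0.69, and the list of microglia and border macrophages 0.74 and 0.50. The oligodendrocyte list then had 0.25 and 0.19, the astrocyte list 0.09 and -0.24, and the mural list 0.43 and 0.16.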

How the data were processed

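RNA was measured in hippocampi of 4 Nr2f1 heterozygotes and 4 wild-type mice. Per the labels' protocols, 10 ng of total RNA was turned into cDNA by poly(A) and random priming with a NuGEN Ovation kit, which does not mark strand. The cDNA was sheared to inserts of 400 bp and sequenced on an Illumina HiSeq after addition of ERCC spike-in RNA. The authors deposited raw read counts per Ensembl gene. The submitters' processing notes name STAR 2.4.2a, HTSeq, FastQC and DESeq2 and the builds mm9 and NCBIM37. Their settings, the strand option and the annotation were not given in the sources used here. A further 92 rows of spike-in RNA, at most 0.0787% of the counts of a library, entered neither library sizes nor tests.

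Gene names, exon lengths and neighbours came from GENCODE M21 (GRCm38), which named 32620 of 37310 genes; distances between genes are on that build. Counts were filtered with filterByExpr (minimum count 10, minimum total 15), scaled by TMM and compared by edgeR 4.0.16 in R 4.3.3 (quasi-likelihood F test, two-sided). P-values were adjusted over 17913 genes by the Benjamini-Hochberg method, with calls made at 0.05. The SE of a log2 fold change is its size over the square root of F. Scores and correlations used log2 CPM with a prior count of 2. The fit was also run on simulated counts drawn independently for each gene. Those counts hold no variation in tissue shared among genes, so that run does not cover such variation.

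The genes and the lists were chosen with earlier results of these data known, and the lists overlap in 4 genes of the matrix and meningeal lists. From each list, genes past the threshold were named, up to 4 in each direction by lowest p; other genes named with values were chosen after these were seen. Alternatives were upper quartile and RLE scaling, DESeq2 1.42.0 (Wald), limma-voom (limma 3.58.1), other filters, each library left out, WT libraries 1 and 3 left out together, the replicate block, the run of animal numbers, the spike-in mix or a choroid plexus score as a covariate, each spike-in mix alone and coding length. Each library came from a separate animal, and no pair within a genotype agreed within sampling noise (chi-square per degree of freedom 7.42 to 25.0). A count of 0 allowed up to 3 counts, or 0.0332 to 0.051 CPM by library.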

Additional observations from a re-analysis of the deposited data

Results flagged for a closer look

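Of 146 groups of 4 libraries checked, the 2 genotypes of 73 genes, 6 (4.11%) held a library far from the other 3; chance gives about 1 in 20 groups. Fmod stood at 13.2 CPM in WT library 4, while the other WT libraries lay between 3.99 and 5.37 CPM. The genes that varied with Fmod within genotype, among them Slc22a6 at 4.96 CPM and Slc6a13 at 6.51 CPM, were also highest in that library among WT mice. Prelp stood at 50.8 CPM in heterozygote 4, while the other heterozygotes lay between 44.5 and 45.5 CPM. That library was the lowest heterozygote in 5 of the 10 genes, Dcn, Postn, Slc6a13, Slc22a6 and Slc22a8. The other 4 were Omd at 1.10 CPM in WT library 4, against 0.307 to 0.338 CPM in the other WT libraries, Crabp2 at 1.64 CPM in that library, against 0.706 to 0.864 CPM, Chrm1 at 269.8 CPM there, against 302 to 305 CPM, and Dse at 8.43 CPM in heterozygote 1, against 6.96 to 7.02 CPM in the other heterozygotes.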

How the results depend on the processing

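Of the 210 log2 fold changes of the 10 genes under the 21 alternatives, 1 turned in sign, Slc22a6 at -0.16 once the choroid plexus score was a covariate, where Gjb2 stood at -0.19 and Ifitm2 at -0.015 (edgeR). The count of these genes called, 1 over all libraries, was 3 by DESeq2, 3 in the odd-numbered libraries, 2 with the spike-in mix as a covariate, 0 given the choroid plexus score, and 1 to 4 with a library left out. The count over all genes, 535, was 1183 by DESeq2 (77.4% of them higher, against 87.7%), 170 without WT libraries 1 and 3, 231 with the run of animal numbers, 78 in the even-numbered libraries, 1 with the choroid plexus score and 171 to 767 with a library left out. Nr2f1 stayed called throughout, at -0.77 to -0.68. Replicate numbers did not pair the libraries: deviations of same-numbered libraries correlated at 0.03, -0.04, -0.09 and -0.08. With the replicate block 406 genes were called, and 1 of the 10, Postn. Besides Nr2f1, of 20 named genes past the threshold, 7 stayed past it with every single library left out. The causes of these differences were not tested. The choroid plexus score differs between the genotypes without overlap, so that covariate and genotype can hardly be told apart, and 4 libraries per genotype limit the precision of every value.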
